A study of Dendrobium huoshanense with 6 samples.

Results

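The abundant transcript clusters that were strongly lowered in the cold were examined in the orchid Dendrobium huoshanense, a medicinal plant, from RNA of whole seedlings. A cluster here is a set of assembled contigs whose IDs share a CL number, and an unclustered contig, named Unigene, stands alone. Read estimates were summed over each cluster and divided by the library total to give CPM, the counts scaled to 1000000 reads of a library. A feature was taken as a member when its lowest CPM over the normal growth libraries was at least 50 and was at least 4 times its highest CPM over the cold libraries. The rule chose 152 of 118758 features, or 0.128%, and 4.51% of the 3372 features that held at least 50 CPM in every normal growth library. The mirrored rule, for features raised in the cold, chose 159 of the 3290 features with at least 50 CPM in every cold library, or 4.83%. All values of cold against normal growth below come from the libraries that chose the members, so they are descriptions and no test is drawn from them.

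The cold group is 3 libraries whose treatment label names cold stress, and it was set against 3 libraries labelled as normal growth. The labels name no strain, genotype or other agent, describe the material as annual plants, and call the libraries biological repeats without saying how many plants each held. The protocol is the same text for every library. It names 4 °C and freezing stress, a light period of 11 h per day, and harvests on days 0 and 7. Normal growth was taken here as the harvest of day 0 and cold as that of day 7, so cold and plant age cannot be told apart. The libraries held 15284397 to 17255112 estimated reads in the cold and 17683567 to 18085164 in normal growth, and 3 reads of a library correspond to 0.166 to 0.196 CPM. In whole seedlings, fewer cells of a type and less RNA per cell cannot be told apart.

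Plants that meet low temperature change the transcripts of many pathways. Those for cold-regulated transcription factors, protective proteins, soluble sugars and membrane lipids commonly rise, and those for photosynthesis and growth commonly fall. This is general background from model plants. The tables give each contig an ID and a length and no gene or product name, so the members are described by ID, structure and level, and no function is given to any of them.

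Together the members took a small share of the RNA in the cold and a sizeable one in normal growth. They held 0.546%, 0.524% and 0.485% of the reads in cold replicates 1, 2 and 3, against 5.26%, 5.90% and 6.32% in normal growth replicates 1, 2 and 3. The groups stood far apart, at 0.518% ± 0.0311 in the cold and 5.83% ± 0.535 in normal growth (SD, n = 3 each), an 11.2-fold lower share in the cold. The rule fixes that direction. All features with at least 50 CPM in every normal growth library held 57.2% ± 0.672 of the cold reads and 67.8% ± 0.524 of the normal growth reads (SD, n = 3 each). Choosing features for a high level in 1 group favours such a difference, and 42.5% of the 3372 had all cold libraries below all normal growth libraries.

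**Figure D1:**
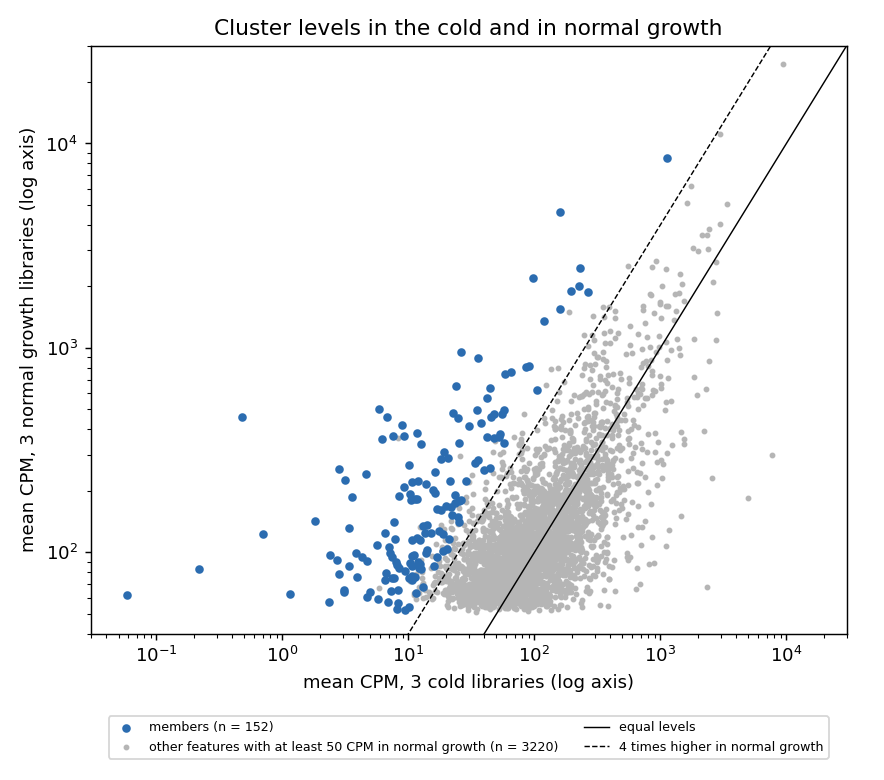
Each point is a cluster or unclustered contig with at least 50 CPM in every normal growth library, at its mean CPM over the 3 cold libraries (x, log axis) and over the 3 normal growth libraries (y, log axis). The 152 members lie above the dashed line of a 4-fold difference, and most of the other 3220 features lie around the line of equal levels. Some of the others, such as CL6895 and CL2997, also lie above the dashed line. The rule compares the lowest with the highest library and not the means drawn here.

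The members spanned a wide range of abundance. Mean levels ran from 0.0589 to 1133 CPM in the cold, with a median of 12.3, and from 52.5 to 8501 CPM in normal growth, with a median of 162. In normal growth 51 members averaged under 100 CPM, 39 from 100 to 200, 42 from 200 to 500, 11 from 500 to 1000 and 9 at least 1000 CPM. Those 9 held 0.259% ± 0.0203 of the cold reads and 2.65% ± 0.306 of the normal growth reads (SD, n = 3 each). They thus made up 48.5% to 52.6% of all member reads in a cold library and 43.6% to 47.4% in a normal growth library. Members that were more abundant in normal growth were also more abundant in the cold, with a Spearman rho of 0.67 across the 152 members. This is a relation across features that share the same 6 libraries and were chosen by both values, and it carries no test.

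CL15775, a cluster of 7 contigs up to 4933 bases long, was the most abundant member in each group. It had 1112, 1114 and 1172 CPM in cold replicates 1, 2 and 3, against 7262, 9683 and 8558 CPM in normal growth replicates 1, 2 and 3. The cold libraries were nearly level with each other, and the normal growth libraries varied more. Its fitted log2 fold change of cold over normal growth was -3.01 ± 0.21 (SE, edgeR fit over all features). CL15775 thus kept a high level in the cold: of the 152 members 9 had a mean of at least 100 CPM there, and 54 were under 10 CPM.

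CL1378, with 8 contigs up to 3256 bases, was second in abundance. Its level was 79.1, 316 and 82.5 CPM in cold replicates 1, 2 and 3, against 3028, 4409 and 6432 CPM in normal growth replicates 1, 2 and 3. Cold replicate 2 stood several times above the other cold libraries, and the groups were still far apart. The log2 fold change was -4.97 ± 0.68 (SE). The ratio of the normal growth mean to the cold mean was 29.1, and 57.2 without cold replicate 2. It was 23.4 without normal growth replicate 3. Here and below, leaving out the highest cold library can only raise such a ratio, and leaving out the highest normal growth library can only lower it.

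The next members by abundance varied less than CL1378 between the cold libraries, and more than CL15775. CL14547, with 7 contigs, had 358, 126 and 207 CPM in the cold libraries and 1689, 2655 and 3035 CPM in the normal growth libraries, in replicate order. CL7445, with 3 contigs, had 86.0, 146 and 61.1 CPM in the cold and 2181, 2364 and 2075 CPM in normal growth. CL12801, with 2 contigs, had 215, 333 and 133 CPM in the cold and 2156, 2259 and 1621 CPM in normal growth. The lower level in the cold was thus deeper for CL7445, with a log2 fold change of -4.62 ± 0.36 (SE), than for CL14547 at -3.53 ± 0.43 or CL12801 at -3.27 ± 0.36 (SE), and these differences between members were not tested. The unclustered contig Unigene22432_All, of 2053 bases, had 267, 134 and 189 CPM in the cold and 1556, 2287 and 1821 CPM in normal growth, a log2 fold change of -3.38 ± 0.31 (SE).

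Scaled for contig length, the order changed. On the deposited FPKM (fragments scaled to contig length and to depth), summed over the contigs of a cluster, CL15775 led with 338 ± 6.84 FPKM in the cold and 2541 ± 339 FPKM in normal growth (SD, n = 3 each). CL12801, whose contigs are at most 1271 bases long, came second with 225 ± 100 FPKM in the cold and 1981 ± 344 FPKM in normal growth (SD, n = 3 each). CL1378 followed with 56.0 ± 44.1 FPKM in the cold and 1534 ± 567 FPKM in normal growth (SD, n = 3 each). In normal growth the levels of CL12801 and CL1378, and those of CL15775 and CL12801, lay within their summed SDs of each other. CL10771, described next, was 12th of the 152 on this scale in normal growth and 149th in the cold.

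The depth of the difference varied widely between members. The ratio of the lowest normal growth CPM to the highest cold CPM ran from 4.01 to 647. It was 4 to 8 in 96 members, 8 to 16 in 36, 16 to 32 in 8 and over 32 in 12. The median fitted log2 fold change was -3.52, with a range from -9.98 to -2.47, and the median SE was 0.33. Over all features that were fitted the median log2 fold change was 0.07. All 152 members had an adjusted p under 0.05 and were lower in the cold (edgeR quasi-likelihood test, Benjamini-Hochberg adjustment over 35987 features), against 15.5% of all features tested. Nothing is read from that count, since the same libraries chose the members.

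Of the 152 members, 3 were nearly silent in the cold, under 1 CPM in every cold library. CL10771, with 2 contigs up to 881 bases, had 5, 8 and 11 reads in cold replicates 1, 2 and 3, against 7294, 9669 and 7699 in normal growth replicates 1, 2 and 3. That is 0.327, 0.474 and 0.637 CPM in the cold and 412, 535 and 434 CPM in normal growth. Its pooled level in normal growth was 949 times that in the cold, with an exact 95% interval of 638 to 1481 that covers counting error only.

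CL522, with 5 contigs up to 957 bases, had 0, 2 and 1 reads in the cold libraries and 1082, 1001 and 1221 reads in the normal growth libraries. The 3 reads of the whole cold group leave its ratio loosely bounded, at 1017 with an exact 95% interval of 348 to 4934. Unigene25122_All, of 756 bases, had 1, 3 and 7 reads in the cold and 1449, 1486 and 1512 in normal growth, a ratio of 373 with an interval of 208 to 748. Without the highest cold library, the ratio of group means was 2133 for CL522 against 1050 with it (cold replicate 2), and 683 for Unigene25122_All against 384 (cold replicate 3). Without normal growth replicate 3, the highest of that group for each, it was 990 for CL522 and 379 for Unigene25122_All. Their CPM in normal growth had a coefficient of variation (CV, the SD over the mean) of 2.2% for Unigene25122_All, 11.0% for CL522 and 14.2% for CL10771. These 3 features were among the shorter members, whose longest contigs had a median of 1972 bases.

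Below these came CL9656, with 1.64, 0.415 and 0.058 CPM in the cold and 98.9, 113 and 158 CPM in normal growth. Its cold level rested on 25, 7 and 1 reads, and the ratio of its normal growth mean to its cold mean was 175, or 521 without cold replicate 1. Without normal growth replicate 3 this ratio was 151. CL14543 had 9.94, 4.63 and 2.90 CPM in the cold and 387, 447 and 680 CPM in normal growth, and Unigene37151_All had 2.29, 0.890 and 2.26 CPM in the cold and 92.6, 219 and 116 CPM in normal growth. For CL14543 the ratio of group means was 86.7, or 134 without cold replicate 1 and 71.6 without normal growth replicate 3. Each of these 3 members had its lowest normal growth library at least 38.9 times above its highest cold library. Among all members, 2 had a cold library listed at 0 reads: CL522 in replicate 1 and Unigene10261_All in replicate 2, the second one singled out after its values were seen. Unigene10261_All had 7.19, 0 and 7.60 CPM in the cold and 58.8, 73.3 and 59.6 CPM in normal growth, so its 0 stood apart from the other cold libraries.

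**Figure D2:**
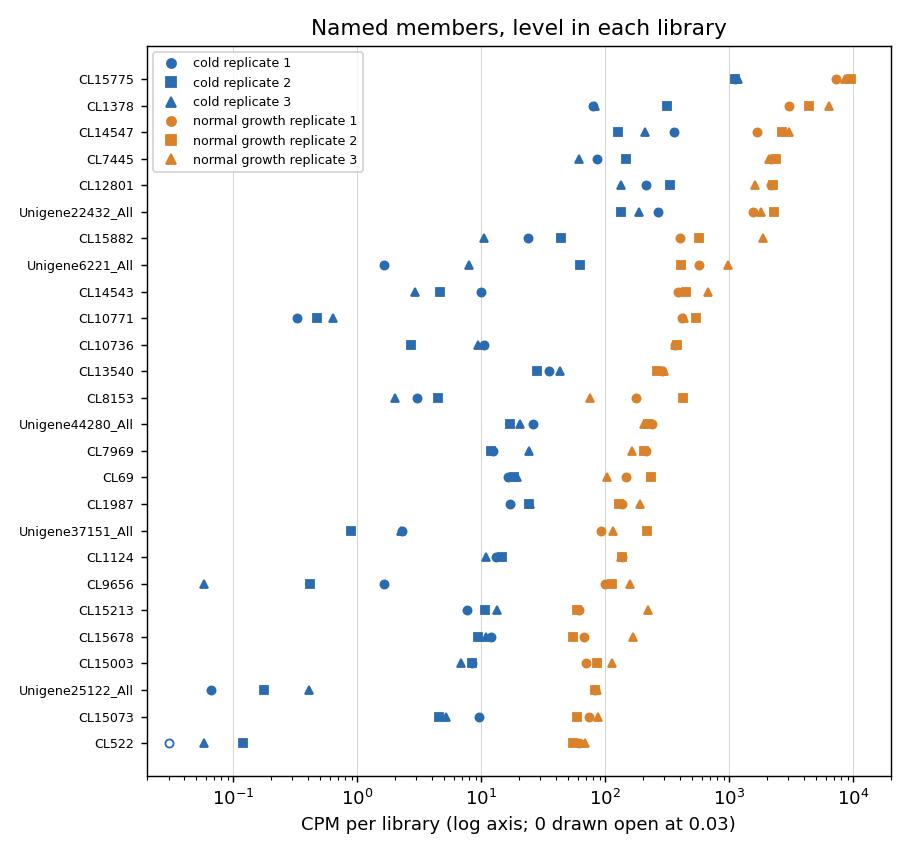
Rows are the 26 members named by fixed rules of size, spread or structure, and points give the CPM of each library on a log axis, in blue for cold and orange for normal growth, with the replicate as the marker shape. The gap between the groups is narrow for CL15213 and widest for CL10771 and CL522, and the cold points of Unigene6221_All and CL9656 are spread over more than 10-fold.

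At the edges of the rule the members passed into features like them. CL4083, CL924 and CL2827 were just inside the 4-fold ratio, at 4.01, 4.04 and 4.07. CL6895, CL1364 and CL2997 were just outside, at 3.99, 3.91 and 3.91. CL1406, Unigene939_All and Unigene5605_All were just inside the floor, with a lowest normal growth level of 50.1, 50.3 and 50.9 CPM, and CL14980, CL3409 and CL10853 were just below it with 49.6, 49.1 and 46.3 CPM. Neither edge fell in a gap. At the ratio, 40 members were under 5 and 74 features of at least 50 CPM were from 3 to 4. At the floor, 27 members had a lowest normal growth level of 50 to 60 CPM. Another 22 features with a ratio of at least 4 had one of 40 to 50 CPM. The feature CL10853 shows what the floor leaves out: it had 2.23, 1.42 and 0.406 CPM in the cold and 104, 46.3 and 86.3 CPM in normal growth.

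The spread between libraries of the same group was set beside that of other abundant features. The median CV over the normal growth libraries was 17.7% for the members and 12.2% for the other 3220 features with at least 50 CPM there. Without normal growth replicate 2 these medians were 11.4% and 9.77%, without replicate 1 they were 16.8% and 11.2%, and without replicate 3 they were 14.3% and 8.95%. A median CV over fewer libraries tends to be lower. These values are thus set between members and others, and not against those over all normal growth libraries. A CV over 50% was seen in 16 members, or 10.5%, and in 1.61% of the others. Over the cold libraries the median CV was 31.9% for the members and 18.0% for the others, with median mean levels of 12.3 and 97.2 CPM. The 159 features chosen by the mirrored rule had a median CV of 24.3% in normal growth and 22.3% in the cold. Of them, 16.4% had a CV over 50% in normal growth, so a wide spread was not particular to the members. These are descriptions, since the rule used the same libraries, and low counts add to a CV. The level stayed within a 2-fold range over the normal growth libraries in 119 members and over the cold libraries in 89.

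The spread in normal growth came in more than 1 pattern. In 15 members replicate 2 was at least 1.5 times the next normal growth library, in 15 others replicate 3 was, and in 3 replicate 1 was. The same held for 2.52%, 1.99% and 1.07% of all 3372 abundant features, against 9.87%, 9.87% and 1.97% of the members, for replicates 2, 3 and 1 in that order. CL8153 was high in replicate 2, with 3.01, 4.44 and 2.03 CPM in the cold and 178, 426 and 76.0 CPM in normal growth. CL15213 was high in replicate 3, with 7.61, 10.7 and 13.5 CPM in the cold and 61.4, 59.4 and 222 CPM in normal growth. CL15882 also had its highest level in replicate 3, with 23.8, 44.2 and 10.6 CPM in the cold and 404, 570 and 1879 CPM in normal growth. Without its highest normal growth library, the ratio of the normal growth mean to the cold mean was 40.2 for CL8153 against 71.7 with it, 5.71 for CL15213 against 10.8, and 18.6 for CL15882 against 36.3. For CL15882 it was 55.3 without cold replicate 2. The SEs of these members were wide, at -6.28 ± 0.75 for CL8153, -3.52 ± 0.60 for CL15213 and -5.30 ± 0.81 for CL15882 (log2 fold change ± SE).

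Other members were nearly constant in normal growth. CL1124 had 13.2, 14.8 and 10.9 CPM in the cold and 135, 136 and 133 CPM in normal growth, a CV of 1.08% there. CL10736 had 10.6, 2.73 and 9.45 CPM in the cold and 367, 379 and 369 CPM in normal growth, a CV of 1.77% there. A CV under 10% in normal growth was seen in 36 of the 152 members and in 1261 of the other 3220 abundant features, so it was less common among the members. It was also seen in only 29 of the 159 features chosen by the mirrored rule, so this was not particular to the members. The cold libraries of CL10736 varied more, with replicate 2 several times below the others.

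In the cold, the highest of the 3 libraries was replicate 1 in 67 members, replicate 2 in 48 and replicate 3 in 37. It was at least 1.5 times the next in 15, 16 and 5 of them. These cold gaps were not set beside those of other features, and low counts add to them, so nothing is read from their number. The widest spread belonged to Unigene6221_All, of 2521 bases, with 1.65, 62.1 and 7.93 CPM in cold replicates 1, 2 and 3, against 573, 412 and 974 CPM in normal growth replicates 1, 2 and 3. Cold replicate 2 set its ratio of 6.63 between the lowest normal growth and the highest cold library. The ratio of its group means was 27.3, and 136 without cold replicate 2 or 20.6 without normal growth replicate 3. Its SE of 1.25 on the log2 scale was the largest among the 152 members.

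**Figure D3:**
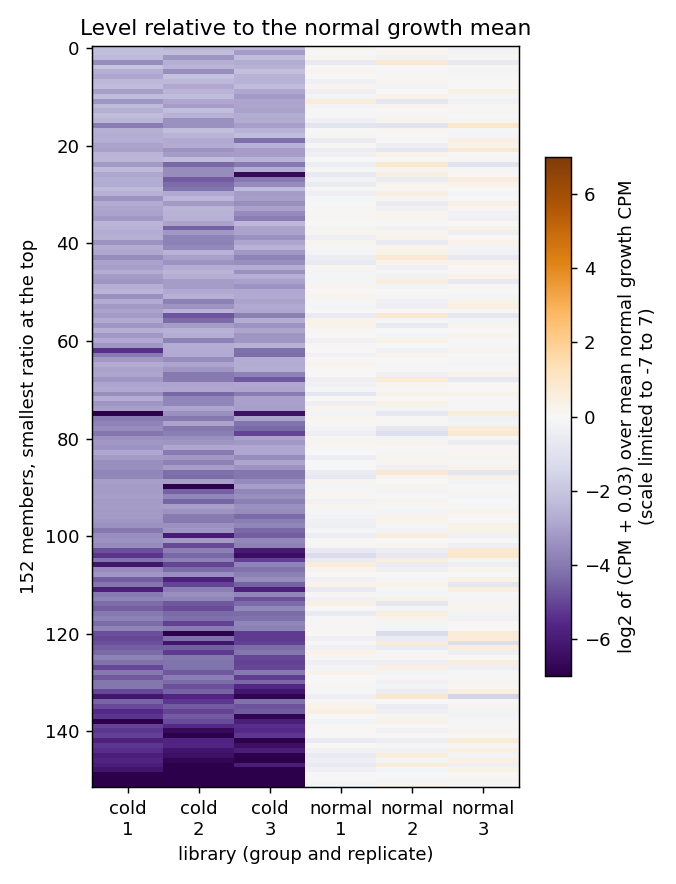
Each row is 1 of the 152 members and each column a library, cold at the left; the colour gives log2 of the CPM (plus 0.03) over the member's mean normal growth CPM, limited to -7 to 7. Rows are ordered by the ratio of lowest normal growth to highest cold CPM, smallest at the top; the cold columns darken downwards, and single dark cells mark members with 1 low cold library.

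The members comprised 104 clusters and 48 unclustered contigs, with 550 contigs in all. Unclustered contigs made up 31.6% of the members and 21.1% of the other abundant features. They made up 31.4% of the 159 features that the mirrored rule chose, so this share was not particular to the members. The member clusters held a median of 4 contigs, against 5 in the other abundant clusters and 4 in the clusters chosen by the mirrored rule. Of the member clusters, 10 held 10 or more contigs. The longest contig of a cluster had a median of 2128 bases in the members and 2774.5 in the other abundant clusters, and the unclustered contigs had medians of 1699 and 1748.5 bases in the same order. The longest member was CL7969 at 5045 bases, with 12.5, 11.9 and 24.2 CPM in the cold and 215, 207 and 163 CPM in normal growth. The shortest was Unigene44280_All at 592 bases, with 26.4, 17.0 and 20.3 CPM in the cold and 240, 222 and 206 CPM in normal growth.

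The clusters with the most contigs had moderate levels. CL15073, with 17 contigs, had 9.62, 4.57 and 5.22 CPM in the cold and 74.2, 58.9 and 87.2 CPM in normal growth. CL1987, with 14 contigs, had 17.2, 24.3 and 24.6 CPM in the cold and 136, 130 and 191 CPM in normal growth. CL13540, the most abundant of 3 clusters with 13 contigs, had 35.1, 28.0 and 43.0 CPM in the cold and 287, 262 and 297 CPM in normal growth. Their log2 fold changes were -3.62 ± 0.33, -2.89 ± 0.25 and -3.10 ± 0.23 (SE), against a median of -3.52 over the members.

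Reads shared with contigs of other clusters could move a sum. The sums of 68 members, 46 clusters and 22 unclustered contigs, were whole numbers in all 6 libraries within the rounding of the deposited values (0.005 reads per contig), as they are where no read is divided with a contig outside the feature. These were 44.7% of the members, against 38.0% of all abundant features. CL14547, CL7445, CL12801 and Unigene22432_All were among them, and CL15775 and CL1378 were not.

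The rule set only the sum of a cluster, so its contigs could move apart. In the 104 clusters, 326 of 502 contigs averaged at least 5 CPM in normal growth. Of these, 320 had a lower mean in the cold, 282 had all cold libraries below all normal growth libraries, and 5 were listed at 0 in every cold library. The median ratio of normal growth to cold means over these contigs was 10.5. In the 2540 other abundant clusters, 62.2% of the 8747 contigs with at least 5 CPM had a lower mean in the cold, and 28% had all cold libraries below all normal growth libraries. A contig that holds most of a member cluster has to be lower in the cold with its sum, so the counts in the members follow in part from the rule, while a contig that is a small part of its cluster is free to differ.

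In the opposite direction, 47 contigs in 30 clusters had a higher mean in the cold than in normal growth, 12 of them with no overlap between the groups. Of the 10950 contigs with a higher mean in the cold in the other abundant clusters, 37.4% had no overlap. Only 8 of the 47 reached a mean of 5 CPM in the cold, and 5 of those 8 belonged to CL15775. The 2 leading contigs of that cluster, CL15775.Contig2_All of 3183 bases and CL15775.Contig1_All of 4090 bases, were lower in the cold. CL15775.Contig2_All had 556, 493 and 464 CPM in the cold and 4549, 5345 and 5478 CPM in normal growth. CL15775.Contig1_All had 206, 286 and 383 CPM in the cold and 2574, 4194 and 2945 CPM in normal growth.

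The other 5 contigs of CL15775 together went the other way, at 350, 334 and 325 CPM in cold replicates 1, 2 and 3, against 139, 144 and 135 CPM in normal growth replicates 1, 2 and 3. Both sets of libraries were tight, and the groups did not overlap. CL15775.Contig3_All, the longest at 4933 bases, had 119, 106 and 101 CPM in the cold and 15.4, 15.0 and 12.7 CPM in normal growth. CL15775.Contig6_All, of 3309 bases, had 109, 148 and 76.0 CPM in the cold and 44.9, 43.4 and 42.0 CPM in normal growth. The 5 contigs made up 29.8% ± 1.88 of the cluster in the cold and 1.66% ± 0.225 in normal growth (SD, n = 3 each). The contigs of CL15775 and CL139 named here were chosen after their values were seen, and reads that fit several contigs were divided between them by estimate. How far that division moved these contig levels was not tested. Outside CL15775, CL139.Contig1_All had 5.97, 12.6 and 6.71 CPM in the cold and 0.96, 0.76 and 0.18 CPM in normal growth, while its cluster as a whole had 27.7, 22.7 and 23.2 CPM in the cold and 308, 663 and 395 CPM in normal growth.

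**Figure D4:**
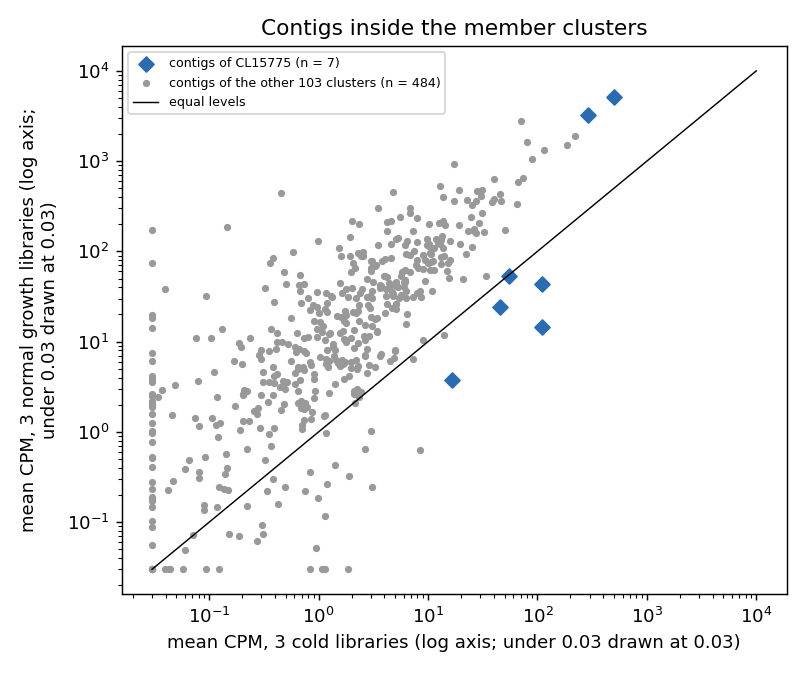
Points are the contigs of the 104 member clusters with a read in any library, at their mean CPM over the 3 cold libraries (x, log axis) and the 3 normal growth libraries (y, log axis). Blue diamonds are the 7 contigs of CL15775: 2 lie far above the line of equal levels and 5 on its cold side, 1 of them close to the line.

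In most clusters the contig that led in normal growth also led in the cold. This held for 81 of 104 clusters, or 77.9%, by group means, against 74.8% of the 2540 other abundant clusters, and for 47 when the same contig had to lead in each of the 6 libraries. The 77.9% was close to the share of the other clusters, and the 47 was not set beside them. Neither is read as a trait of the members. The leading contig held a median of 64.6% of its cluster in normal growth, and over 90% in 25 clusters.

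The largest shift was in CL69, with 10 contigs. CL69.Contig1_All, of 1549 bases, held 39.8%, 0% and 20.2% of the cluster's reads in cold replicates 1, 2 and 3, against 67.2%, 83.2% and 54.8% in normal growth replicates 1, 2 and 3. The whole cluster had 16.5, 18.3 and 19.5 CPM in the cold and 146, 233 and 103 CPM in normal growth. Its sum was thus steady in the cold while the estimated share of its leading contig was not. Its 252, 308 and 336 reads in the cold libraries were divided between its contigs by estimate. How far such division moved the shares of this and the following clusters was not tested. In CL15003, with 3 contigs, CL15003.Contig2_All held 40.1%, 26.0% and 53.6% of the reads in the cold and 90.6%, 92.3% and 83.5% in normal growth. These cold shares rest on 391 reads over the 3 libraries. In CL15678 the shift ran the other way: CL15678.Contig1_All held 77.2%, 63.6% and 78.1% in the cold and 20.3%, 69.8% and 31.7% in normal growth, and normal growth replicate 2 overlapped the cold range. The ratio of the normal growth mean to the cold mean of CL15678 as a whole was 8.99, or 5.70 without normal growth replicate 3.

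A library that took no part in the choice was read in turn. When the rule was applied to 5 libraries, it chose 168 to 189 features, and the 152 members were among them. Because the members are the features that meet the rule in all 6 libraries, they are also the part of each choice that met it in the library left out, at 80.4% to 90.5%. Nearly all, 99.4% to 100%, had the left-out library on the side of its own group, below every normal growth library if cold and above every cold library if normal growth. The 152 members are on that side by the rule, so most of this share is fixed and nothing is read from it. Of all 3372 features with at least 50 CPM in every normal growth library, 42.5% had no overlap in this direction. The lowest share meeting the rule was for normal growth replicate 3 and the highest for cold replicate 2.

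The largest feature kept out by 1 library was Unigene36615_All, of 898 bases, which entered without cold replicate 2 and was singled out after its values were seen. It had 366, 7592 and 971 CPM in cold replicates 1, 2 and 3, against 14583, 5154 and 13780 CPM in normal growth replicates 1, 2 and 3. Cold replicate 2 lay above normal growth replicate 2, so the groups overlapped.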

How the data were processed

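Poly(A)-selected RNA of 3 cold and 3 normal growth libraries was analysed, grouped by the treatment label. Per the file headers, each table holds 181669 contigs with their length. In the deposited expected counts a read that fits several contigs is divided between them. The deposited TPM are scaled to length and to a fixed sum per library, and the deposited FPKM to length and depth. RSEM 1.2.8, Bowtie2 2.2.5 and DESeq2 are listed in the submitters' processing notes with no role. How contigs were assembled and clustered was not given in the sources used, and clusters were read from the ID prefix.

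Sums per cluster were divided by the library total for CPM. For fold changes, the sums were rounded and fitted over all features kept by filterByExpr with edgeR 4.0.16 in R 4.3.3 (TMM, robust quasi-likelihood). The fit was also run on simulated counts in which only chosen features were lowered and no others changed, unlike these data. Nothing is read from that run. The SE is the log2 fold change over the root of F. DESeq2 1.42.0 was an alternative. Intervals of ratios are exact (Clopper-Pearson) at 95%, and intervals and floors cover counting error only. Where nothing says that libraries came from separate plants, p-values measure only the spread between them.

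The members and the rules for naming them (highest level, largest ratio, edges of the rule, largest and smallest CV, most contigs, longest and shortest, largest shift of the leading contig) were chosen with earlier results of these data known. The classes of level and ratio, the 1.5-fold gap to the next library, the 5 CPM minimum for contigs and the check for whole sums were set after the values were seen.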

Additional observations from a re-analysis of the deposited data

How the results depend on the processing

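The number of members, 152, moved by over 1.5 times only under other thresholds of the rule: 285 at a floor of 20 CPM, 87 at 100 CPM, 56 at a ratio of 8, and 371 when group means replaced the lowest and highest library. It was 178 with TMM and 179 with DESeq2 size factors (152 and 149 shared), 226 at a ratio of 3, and 192 for single contigs, of which 138 lay in 116 members. With TPM it was again 152, of which 125 were shared: the 27 that entered had longest contigs of 905 bases in the median and the 27 that left 3050. Leaving out 1 library gave 168 to 189 members. The difference in their share of reads, -5.31 percentage points, was -4.79 in TPM and -5.51 to -6.69 with the members chosen again from 5 libraries; the -6.69, without cold replicate 2, was -5.64 without Unigene36615_All. That omission, and the ratios of group means without a member's highest library, which moved by over 1.5 times in 10 of the 26 named members, were chosen after seeing the data. The median log2 fold change of -3.52 was -3.40 without TMM, which moved the median of all features from 0.07 to 0.19, and -3.47 to -3.67 on leaving out 1 library. Of the 152 members called, 148 to 152 were called under each alternative run. Of all 35987 features tested, 5581 were called lower in the main run, 2155 at an adjusted p under 0.01 and 3100 with the replicate block. With no filter on low counts it was 7238 of 111553. The DESeq2 test called 6193 of 68071 lower. Without TMM the count was 4915, and with DESeq2 size factors in edgeR 5774, each of 35987. On leaving out 1 library it was 3391 to 5268, of 38752 to 41424 features. Nothing is read from the member counts, since the same libraries chose the members. The leading contig was the same in 81 clusters, in 78 by FPKM, in 72 to 80 on leaving out 1 library and in 47 when it had to lead in each of the 6 libraries. The median CV in normal growth, 17.7%, was 11.4% to 16.8% on leaving out 1 library, lowest without replicate 2. A median CV over fewer libraries tends to be lower. The medians of the other abundant features without each library were added after seeing the data. Deviations from the group means had correlations of -0.092, -0.0088 and -0.13 between same-numbered libraries. Between differently numbered libraries they ran from -0.090 to 0.18. With only 3 libraries per group these values cannot decide whether the numbers pair the libraries. With the replicate block 151 members were called, with a median log2 fold change of -3.51.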
